A study of Homo sapiens with 6 samples.

Results

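miR-7-5p and miR-3529-3p were read as a pair in small-RNA libraries of exosomes, the small vesicles that cells release, from HCT116, an established human colorectal carcinoma line. Both entries were taken by their exact names, hsa-miR-7-5p and hsa-miR-3529-3p, from the 6 deposited tables, and they are 2 of the 2588 mature miRNA entries listed there. The cells had received either a control siRNA (siCTL, 3 libraries) or an siRNA against PRDX3 (siPRDX3, 3 libraries), the gene of a mitochondrial peroxiredoxin, by microporation for 40 h. Exosomes of both groups were then collected over 24 h in medium whose serum had been depleted of nanoparticles. The comparison asks how depletion of PRDX3 alters the miRNA content of exosomes. All libraries come from this single line, and nothing in the labels says whether the 3 libraries of a group were separate cultures, so a p-value here reflects the spread among libraries that may be technical repeats. PRDX3 mRNA was not measured, so the knockdown could not be checked. The design text of the series ends with a sentence that speaks of a different siRNA and of endothelial cells. It conflicts with the sample titles and with the cell line of every sample, which were followed here, and these data cannot settle it.

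miR-7 is one of the most conserved animal miRNAs. It is known for lowering EGFR and IRS2, parts of the growth factor pathway on which many carcinomas depend, and it is abundant in neurons and in pancreatic endocrine cells. The circular RNA CDR1as carries many binding sites for it, and the long noncoding RNA Cyrano directs its degradation. miR-3529-3p is annotated on the strand opposite to a miR-7 hairpin, and far less is known of it.

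The sequences of both miRNAs are shown because they carry the question of this comparison: each is the exact reverse complement of the other over all 24 bases. Capitals mark the seed, bases 2 to 8, with which a miRNA recognises its targets (RefSeq, GRCh38.p14).
miR-7-5p: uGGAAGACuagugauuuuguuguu
miR-3529-3p: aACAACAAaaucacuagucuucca
Despite that, their seeds differ, GGAAGAC against ACAACAA. Among the 2281 entries with a RefSeq sequence, each of these seeds belonged to 1 entry only, so neither member had a seed relative among them. The remaining entries were not checked. With 33.3% G and C, both are AU-rich. The median over the 69 of 80 tested miRNAs with a sequence was 52.2%, and 3 of these 69, the pair included, lay at or below 33.3%.

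miR-7-5p can come from several hairpins. In GENCODE v29 on GRCh38, MIR7-1 lies on chromosome 9 (83969748 to 83969857, minus strand), within HNRNPK on the same strand, where it overlaps an exon of a protein-coding transcript. MIR7-3 lies on chromosome 19 (4770670 to 4770779, plus strand), within the noncoding host gene MIR7-3HG and outside its exons. MIR7-2 lies on chromosome 15 (88611825 to 88611934, plus strand) and MIR3529 opposite to it (88611847 to 88611924, minus strand). Neither overlaps another annotated gene. The MIR7-2 hairpin is shown because its miR-7-5p, in capitals, covers the same positions, 88611856 to 88611879, as miR-3529-3p on the other strand.
MIR7-2: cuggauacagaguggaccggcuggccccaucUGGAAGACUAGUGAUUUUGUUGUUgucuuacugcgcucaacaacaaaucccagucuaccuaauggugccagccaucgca
The MIR7-3 hairpin holds the same 24 bases in a different surrounding, with no opposite-strand entry in this pair.
MIR7-3: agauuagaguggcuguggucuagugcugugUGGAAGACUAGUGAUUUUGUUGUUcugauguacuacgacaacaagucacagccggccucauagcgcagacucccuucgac
How the authors divided reads among these hairpins, and whether strand was used, is not given in the sources used here. Reads of an entry and of its opposite-strand partner may therefore not be separable, and both values are uncertain to that extent.

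The libraries held 40146 to 230946 miRNA reads, recovered from the deposited values. In siCTL 1 and siCTL 2, 30 and 23 of the 80 tested miRNAs had no read, against 0 to 8 in each of the other 4 libraries, and results are given with and without them. siCTL 1 was the smallest library, whereas siCTL 2, with 80950 reads, was larger than siPRDX3 3, with 70678.

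miR-7-5p was nearly missing from siCTL 1 and siCTL 2 and present in quantity in the other 4 libraries. The siCTL libraries, in the order of their numbers, held 1, 1 and 205 reads of it, and the siPRDX3 libraries held 726, 691 and 129. The deposited level, log2(scaled CPM + 1), was 4.703, 4.39 and 10.676 in siCTL and 11.077, 12.258 and 9.761 in siPRDX3. The groups overlapped on this scale, because siCTL 3 lay above siPRDX3 3. The level averaged 11.03 ± 1.25 over the siPRDX3 libraries and 6.59 ± 3.54 over the siCTL libraries (SD, n = 3 each).

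miR-3529-3p followed the same outline and was fully missing where miR-7-5p had a single read. The siCTL libraries held 0, 0 and 840 reads of it, and the siPRDX3 libraries 1626, 186 and 172. Its deposited log2 level was 0, 0 and 12.71 in siCTL against 12.24, 10.365 and 10.175 in siPRDX3. The groups overlapped, since siCTL 3 held the highest level of all 6 libraries. It averaged 10.93 ± 1.14 over the siPRDX3 libraries and 4.24 ± 7.34 over the siCTL libraries (SD, n = 3 each), so the spread within siCTL exceeded the difference between the groups.

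**Figure D1:**
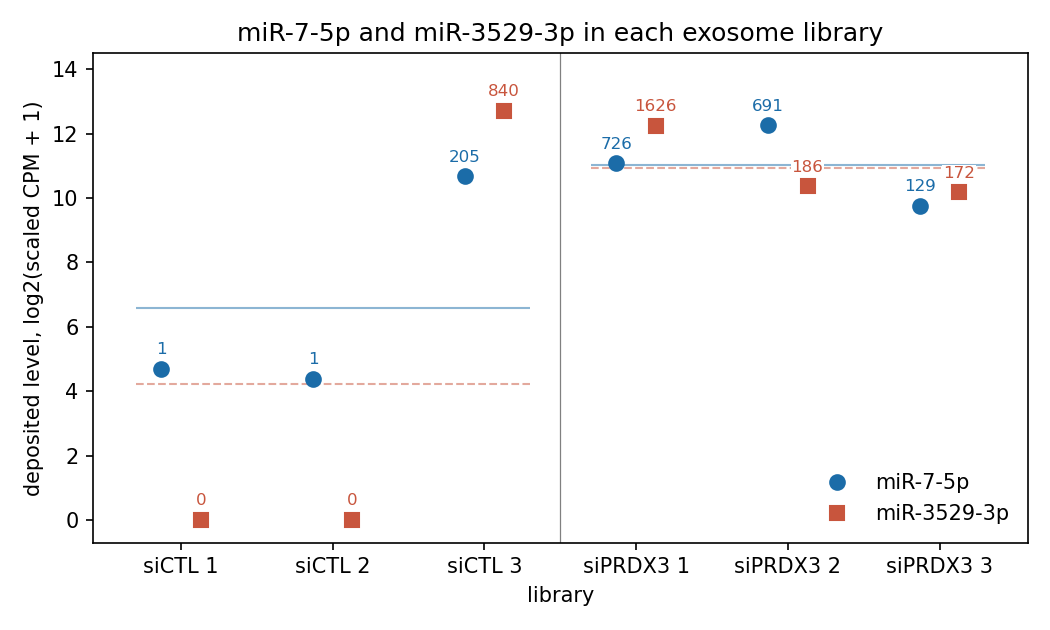
Deposited log2 levels (vertical axis) of miR-7-5p (circles) and miR-3529-3p (squares) in the 6 libraries; the number at each point is its recovered reads, and the lines are group means (solid for miR-7-5p, dashed for miR-3529-3p). siCTL 1 and siCTL 2 hold 1 and 0 reads of the respective entries, and siCTL 3 lies among the siPRDX3 libraries or above them.

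Neither entry passed the test between groups. Over all 80 tested miRNAs, 0 passed by limma (0% at an adjusted p of 0.05). At an unadjusted p under 0.05 there were 6, with 4 (5%) on the higher and 2 (2.5%) on the lower side, and neither member was among them. The log2 fold change of miR-7-5p, siPRDX3 minus siCTL on the log2(value + 1) scale, was 4.44 with SE 2.15 (limma, adjusted p = 0.491, 95% interval −0.60 to 9.49). That of miR-3529-3p was 6.69 with SE 3.53 (limma, adjusted p = 0.491, 95% interval −1.62 to 15.002). By unadjusted p they ranked 10th and 16th. A fold change above 0 was common, with 63.8% of the tested miRNAs there and a median of 1.72. Without the filter, over all 686 entries with a read, 50.9% lay above 0 and the median was 0.17. Because miR-3529-3p is at 0 in both libraries that decide its siCTL mean, its fold change depends on the added 1 and is no bound.

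The call rested on which siCTL libraries were included. Without siCTL 3, miR-7-5p had a log2 fold change of 6.49 (SE 1.39, limma adjusted p = 0.0178) and miR-3529-3p one of 10.93 (SE 1.35, limma adjusted p = 0.00297). For miR-3529-3p, siCTL 1 and siCTL 2 both stood at 0 reads and a level of 0, without spread. Its 10.93 is thus the siPRDX3 mean level itself, and its size, SE and p-value depend on the added 1. In that comparison 25% of all tested miRNAs passed, and 23.8% of all tested passed on the higher side, so the pair shared its call with many others. Without siCTL 1 and siCTL 2 the fold changes were 0.36 (SE 1.71) and −1.78 (SE 1.60), with limma adjusted p-values of 0.913 and 0.797. There 21.2% of the tested miRNAs lay above 0, and the lone siCTL library is assumed to vary like the siPRDX3 ones.

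**Figure D2:**
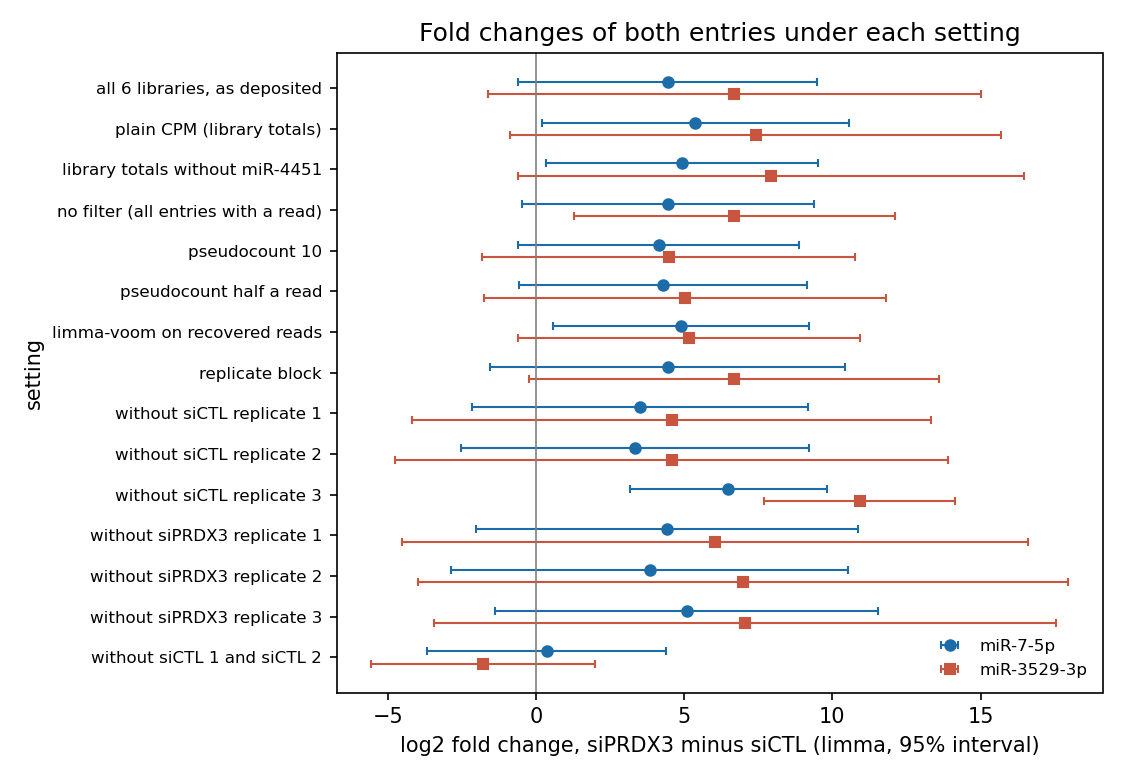
Log2 fold changes (horizontal axis, siPRDX3 minus siCTL) of miR-7-5p (circles) and miR-3529-3p (squares) by limma with 95% intervals, with 1 line for each setting. The intervals of both exclude 0 without siCTL 3, at 6.49 and 10.93, and the values are 0.36 and −1.78 without siCTL 1 and siCTL 2. The 10.93 is set against siCTL libraries with 0 reads of miR-3529-3p.

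As shares of all miRNA reads, which do not depend on the authors' scaling, the pair was a minor part of every library. miR-7-5p took 0.00249%, 0.00124% and 0.164% of reads in siCTL and 0.314%, 0.715% and 0.183% in siPRDX3. On this scale the groups did not overlap, in contrast to the deposited levels. The deposited scaled CPM summed to 994749 to 1616283 in the siCTL libraries and to 474714 to 686860 in siPRDX3. An equal share therefore stood at a higher deposited level in siCTL. The margin between the shares was small. The 95% Clopper-Pearson interval of siCTL 3 ran from 0.143% to 0.188% and that of siPRDX3 3 from 0.152% to 0.217%. Of all tested miRNAs, 12.5% were separated this way on shares and 7.5% on deposited levels. The siPRDX3 mean was 0.404% ± 0.277 and the siCTL mean 0.0560% ± 0.0938 (SD, n = 3 libraries per group). An exact permutation test of the difference gave p = 0.1, which is the lowest that 3 against 3 can reach (adjusted p = 0.5 over 5 measures).

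The share of miR-3529-3p was 0 in siCTL 1 and siCTL 2 and 0.673% in siCTL 3, against 0.704%, 0.192% and 0.243% in siPRDX3. siCTL 3 and siPRDX3 1 were highest, with overlapping intervals of 0.629% to 0.720% and 0.670% to 0.739%, and siPRDX3 2 and siPRDX3 3 were lower. The means were 0.225% ± 0.389 and 0.380% ± 0.282 (SD, n = 3 libraries per group; p = 0.5 by exact permutation, two-sided, adjusted p = 0.75 over 5 measures). Together the pair took 0.784% ± 0.315 of siPRDX3 reads and 0.281% ± 0.483 of siCTL reads (SD, n = 3 libraries per group; p = 0.2 by exact permutation, adjusted p = 0.5). Without siCTL 1 and siCTL 2 the difference between these means was −0.0539 percentage points. By number of reads, miR-7-5p ranked 54th of the 356 entries with reads in siCTL 3 and 42nd, 18th and 57th in the siPRDX3 libraries. miR-3529-3p ranked 24th in siCTL 3 and 25th, 33rd and 41st in siPRDX3.

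The gap within siCTL was larger than counting error. At the shares seen in siCTL 3, 66.0 reads of miR-7-5p would be counted in siCTL 1 and 133 in siCTL 2, where 1 was counted in each. The share of miR-7-5p was 66.0-fold lower in siCTL 1 than in siCTL 3 (95% counting interval 11.7 to 2620) and 133-fold lower in siCTL 2 (23.6 to 5280). For miR-3529-3p, 270.4 and 545.1 reads would be counted, where 0 were found. A count of 0 allows up to 3 reads, a share of 0.00747% in siCTL 1 and of 0.00371% in siCTL 2, so miR-3529-3p was at least 90.1-fold and 182-fold lower there than in siCTL 3. These intervals and limits include counting error alone. If reads were amplified by PCR and not tagged with molecular identifiers, several of them can copy 1 molecule. In these bulk preparations, fewer vesicles of one kind and fewer copies per vesicle cannot be told apart.

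Such gaps were frequent in these libraries. Of the tested miRNAs, 23 (28.8%) had at most 1 read in siCTL 1 and also in siCTL 2. The filter, which asks for at least 3 libraries, can raise this share. It admits entries missing from both, but none seen only in both. Both members were among 5 (6.25%) that in addition had over 100 reads in each of the other 4 libraries, a feature singled out after the values were seen. The remaining 3 were miR-100-5p, miR-99b-5p and miR-92b-5p. The first had 1574 reads in siCTL 3 and 321 to 7228 in siPRDX3, the second 475 and 347 to 1420, and the third 793 and 259 to 1548. Beside this, miR-4451, the most abundant entry, took 49.4% and 76.9% of reads in siCTL 1 and siCTL 2. It took 16.4% in siCTL 3, and the siPRDX3 libraries ranged from 11.8% to 47.7%. With miR-4451 left out of the totals, the pair took 0.00492% and 0.00534% in siCTL 1 and siCTL 2 and 0.709% to 1.74% in the other 4 libraries. The log2 fold changes were then 4.92 for miR-7-5p and 7.94 for miR-3529-3p (limma adjusted p = 0.344 for both).

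The division of reads between the opposite-strand entries differed from library to library. miR-3529-3p made up 80.4% of the pair's reads in siCTL 3 (95% Clopper-Pearson interval 77.8 to 82.7), 69.1% in siPRDX3 1 (67.2 to 71.0), 21.2% in siPRDX3 2 (18.5 to 24.1) and 57.1% in siPRDX3 3 (51.3 to 62.8). These 4 intervals do not overlap, but they too include counting error alone and not the copying of molecules by PCR. siPRDX3 2 was the library that stood apart, with 3.72 reads of miR-7-5p for each read of miR-3529-3p, while siCTL 3 had 4.1 reads of miR-3529-3p for each of miR-7-5p. siPRDX3 2 also held the highest share of miR-7-5p of all libraries. In siCTL 1 and siCTL 2 the pair had a single read, so a division of 0% there allows up to 97.5%.

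No excess of one entry over the other held in all libraries, and the division did not pass a test between groups. The percentage in miR-3529-3p averaged 49.2 ± 24.9 over the siPRDX3 libraries and 26.8 ± 46.4 over the siCTL libraries (SD, n = 3 each; p = 0.6 by exact permutation, adjusted p = 0.75), and the siCTL mean rests on siCTL 3 and 2 libraries of 1 read. Without those 2 libraries the difference, siPRDX3 minus siCTL, changed from 22.4 to −31.2 percentage points. Within libraries, the log2 ratio of miR-3529-3p to miR-7-5p, with 0.5 added to each count, was above 0 in 3 of 6 libraries, with a mean of −0.24 ± 1.67 (SD; exact sign-flip permutation p = 0.75). Taken from the deposited log2 levels, where an entry at 0 reads has a level of 0, the mean difference was −1.23 (exact sign-flip permutation p = 0.375). Both means rest in part on siCTL 1 and siCTL 2, where a log2 ratio of −1.58 is 0 reads against 1 with 0.5 added. Without those 2 libraries the mean log2 ratio was 0.429. Over all libraries miR-3529-3p had 2824 reads and miR-7-5p 1753.

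The largest pairs of the same kind in these tables are miR-423-5p with miR-3184-3p and miR-122-5p with miR-3591-3p, shown for comparison with the 24 bases shared by miR-7-5p and miR-3529-3p. The first pair is complementary over all 23 bases and the second over 21 of 22, with its entries offset by 1 position. Capitals mark the bases that are the reverse complement of the partner (RefSeq, GRCh38.p14).
miR-423-5p: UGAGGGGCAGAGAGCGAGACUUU
miR-3184-3p: AAAGUCUCGCUCUCUGCCCCUCA
miR-122-5p: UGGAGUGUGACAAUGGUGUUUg
miR-3591-3p: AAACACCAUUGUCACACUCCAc
The miR-423 pair, on chromosome 17 (30117095 to 30117117), was divided almost evenly. In the 5 libraries with at least 100 reads of it, miR-3184-3p made up 48.8% to 51.6%, and all 5 counting intervals overlapped. The pair of miR-122-5p, the main hepatocyte miRNA, lies on chromosome 18, at 58451088 to 58451109 for miR-122-5p. In the 5 libraries with at least 100 reads of it, it was uneven in 1 direction. There the opposite-strand entry made up 5.16% to 22.5%. In siCTL 2, with only 48 reads of miR-122-5p and 33 of miR-3591-3p, the latter made up 40.7%. Its counting interval there, 29.9 to 52.2, lay above that range and included an even division. Over the 4 libraries with at least 100 reads of miR-7-5p and miR-3529-3p, the range was 59.2 percentage points (SD 25.7), compared with 2.78 (SD 1.07) and 17.4 (SD 7.24) in the other pairs over 5 libraries each. Libraries with fewer than 100 reads of a pair are left out of these ranges, and with siCTL 2 that of the miR-122-5p pair would be wider. The difference in range between pairs was not tested. In siPRDX3 2, where miR-3529-3p had its lowest percentage of these 4 libraries, miR-3591-3p stood at 9.11%, below its 19.9% in siPRDX3 1, its 22.5% in siPRDX3 3 and its counting interval of 14.2 to 15.8 in siCTL 3, but above its 5.16% in siCTL 1. miR-3184-3p in siPRDX3 2 stood at 49.8%.

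**Figure D3:**
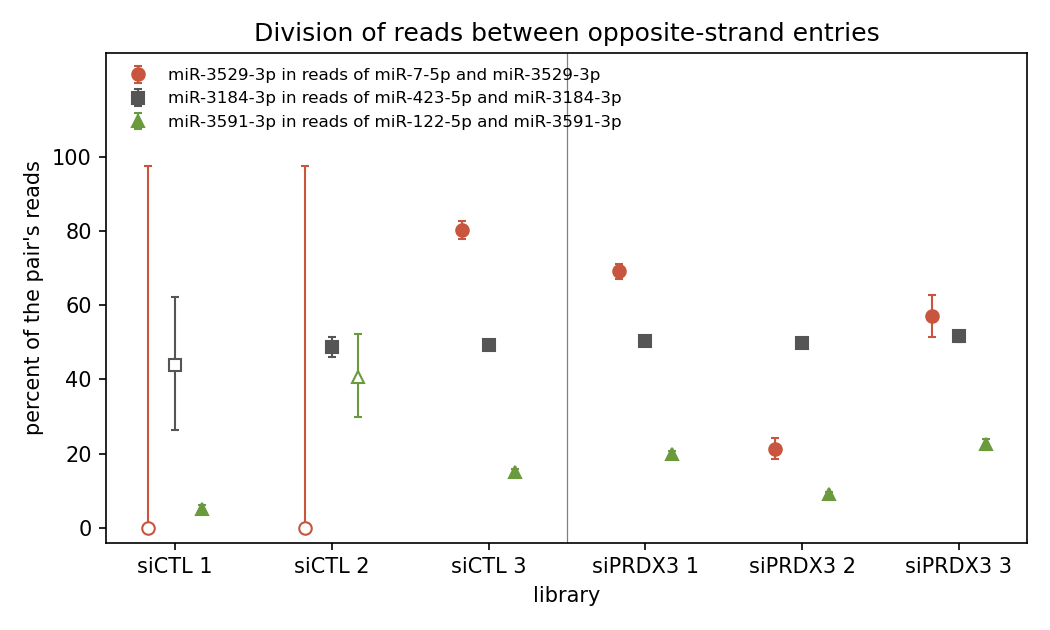
Percent of each pair's reads (vertical axis) assigned to miR-3529-3p (circles), miR-3184-3p (squares) and miR-3591-3p (triangles) in the 6 libraries, with 95% Clopper-Pearson intervals; open symbols have fewer than 100 reads of the pair. miR-3529-3p runs from 21.2% to 80.4% in its 4 filled points, whereas miR-3184-3p stays between 48.8% and 51.6%.

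The other arms of these hairpins were not seen. miR-7-1-3p, miR-7-2-3p and miR-3529-5p, which face the measured arms in the precursor stems, had 0 of 644115 reads. This allows each a share of up to 0.000466% over all libraries. At the same depth miR-7-5p reached 1753 reads and miR-3529-3p 2824.

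Among the tested miRNAs, the patterns closest to miR-7-5p over the 6 libraries were those of miR-941, miR-4516 and let-7e-5p. Closeness is the root-mean-square difference between log2 levels after each miRNA is centred on its own mean. It was 0.72, 0.76 and 1.54 for these entries, against a median of 3.33 over the 79 others. miR-941, which has several copies in introns of DNAJC5, gave 0, 0 and 4 reads in the siCTL libraries against 64, 43 and 10. miR-4516 had 2, 3 and 196 reads against 861, 385 and 140. let-7e-5p, a member of the let-7 family, had 1, 4 and 750 against 527, 130 and 328. miR-3529-3p, from the same positions as MIR7-2, came 21st by this measure, at 2.63. In siCTL 1 and siCTL 2 it had 0 reads and a level of 0, whereas 1 read of miR-7-5p gave levels of 4.703 and 4.39. The distance between the members therefore rests in part on 0 against 1 read. Seen from miR-3529-3p, a comparison added after the values were seen, the closest was miR-92b-5p at 0.48.

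**Figure D4:**
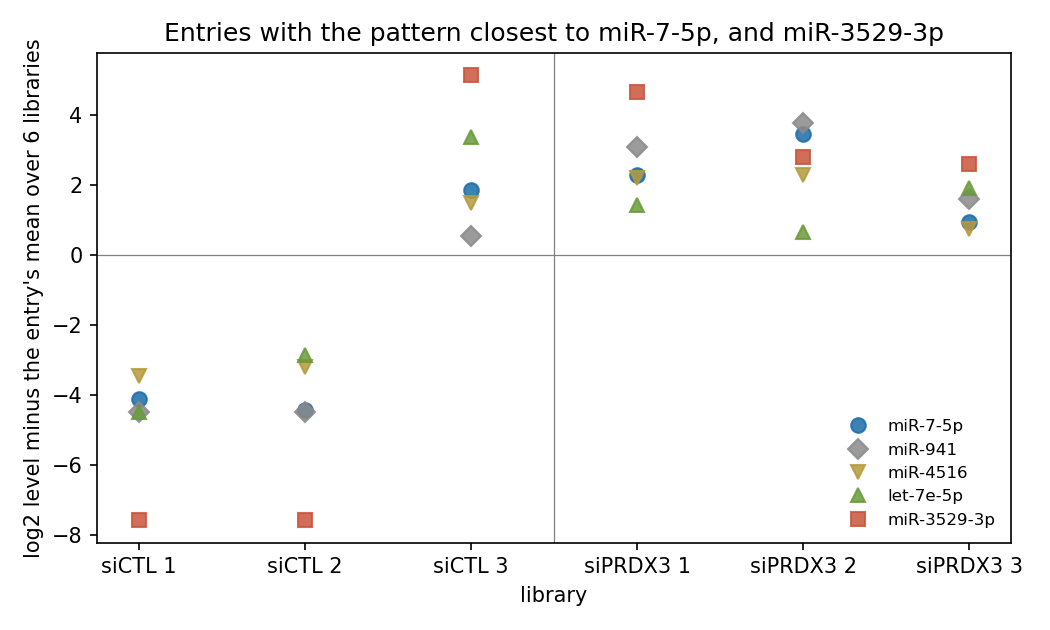
Log2 levels minus each miRNA's mean over 6 libraries (vertical axis) for miR-7-5p, for miR-941, miR-4516 and let-7e-5p, which lie closest to it, and for miR-3529-3p. All 5 lie below their mean in siCTL 1 and siCTL 2 and above it in the other 4 libraries, with miR-3529-3p farthest from 0 in siCTL 1, siCTL 2 and siCTL 3.

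Of 13 miRNAs reported to repress EGFR, as miR-7-5p does, 7 had reads, 2 were tested and 0 passed in either direction. Over all 2588 entries, 686 (26.5%) had reads and 80 (3.09%) were tested. The 2 tested members, miR-7-5p itself among them, had a median log2 fold change of 4.05, and the median of all tested miRNAs was 1.72. With only 1 tested member beside miR-7-5p, this median says nothing about the list as a whole. miR-128-3p, a brain-enriched miRNA and the other tested member, gave 1, 0 and 17 reads in the siCTL libraries against 44, 15 and 75. Its fold change was 3.66 on the log2 scale (SE 2.43, adjusted p = 0.546 by limma). miR-27a-3p and miR-27b-3p, paralogues from separate clusters, were each carried by 1 library, with 217 of 250 reads in siCTL 3 and 310 of 325 in siPRDX3 1. All 287 reads of miR-146a-5p, an inhibitor of innate immune signalling, came from siPRDX3 3. miR-7-5p therefore made up 1753 of the 2785 reads of this list, and the 6 without a read included miR-145-5p, miR-133a-3p and miR-133b.

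miRNAs that act with miR-7-5p or share its neural and endocrine tissues had few reads beside miR-375. miR-671-5p, which cuts CDR1as, had 18 reads in siCTL 2 and 1 in siCTL 3, and 0 in the remaining libraries. miR-375, abundant in pancreatic islets and other endocrine cells, gave 1, 1 and 291 reads in the siCTL libraries against 1295, 1 and 240. Its fold change was 1.77 on the log2 scale (SE 3.04, adjusted p = 0.737 by limma). It matched miR-7-5p in its near absence from siCTL 1 and siCTL 2 but not in siPRDX3 2, where miR-7-5p had 691 reads. Of the 7 neural and endocrine miRNAs, miR-7-5p included, 3 had reads, beside 26.5% of all entries, and miR-124-3p, miR-153-3p, miR-129-5p and miR-184 were at 0 in every library. Of the 2 tested, miR-7-5p and miR-375, 0 passed.

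Summed markers of the labelled tissue were, like the pair, low in siCTL 1 and siCTL 2 and higher in siCTL 3, but not every marker was. Of all tested miRNAs, 28.8% had at most 1 read in siCTL 1 and in siCTL 2. Colon epithelial miRNAs, of which 7 of 8 had reads and miR-429 had none, summed to 3, 4 and 1447 reads in siCTL, or 0.00747%, 0.00494% and 1.16%. In siPRDX3 they took 0.304%, 0.0114% and 0.286%. As a sum they were thus low where the pair was missing, and also in siPRDX3 2, where the pair took 0.907%. In siCTL 3, miR-215-5p held 580 of these reads, miR-200c-3p 450, miR-192-5p 220 and miR-200a-3p 192. In siPRDX3 1 to 3, miR-215-5p had 2, 0 and 0 reads and miR-192-5p 5, 10 and 1. There miR-200c-3p, the 1 tested marker of this list, had 253, 1 and 190, and miR-200a-3p had 221, 0 and 0. In siCTL 1 to 3, miR-141-3p had 0, 4 and 2 reads, miR-194-5p 1, 0 and 2, and miR-200b-3p 0, 0 and 1. Erythrocyte miRNAs, also found in serum (4 of 5 with reads, miR-144-3p at 0), took 4.15% to 5.58% in siCTL and 1.09% to 3.54% in siPRDX3. miR-122-5p and miR-122-3p together took 0.0593% to 5.35% and 2.44% to 9.63%. Leukocyte and platelet miRNAs (4 of 7 with reads, with miR-223-3p, miR-142-3p and miR-150-5p at 0) reached 0.00124% to 0.0208% and 0 to 0.624%. The part of these other sources in the levels of the pair was not tested.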

How the data were processed

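The authors deposited 1 table per library with a log2 value for each mature miRNA, per the file headers and values. Bowtie2 and bedtools (2.25.0) are named in the submitters' processing notes without role. Build, annotation, scaling between libraries, strand and the treatment of multiply mapped reads: not given in the sources used here. Deposited values were read as log2(x + 1), with x called scaled CPM. Per library, x is a whole multiple of the worth of 1 read. This held within 0.1 read for 100% of the values up to 100 reads. Reads of abundant entries are approximate, since values have few decimals.

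The deposited log2 levels were fitted with limma (version 3.58.1, R 4.3.3), without covariates and with its mean-variance trend. Tested entries reached 113 CPM (10 reads in a library of median size) in at least 3 libraries, and 15 reads over all libraries. P-values are two-sided and adjusted by Benjamini-Hochberg over 80 entries at 0.05. Shares and divisions were tested by exact permutation over libraries, in a family of 5 measures, of which the shares of the single entries were added later. The procedures were tested on simulated data. Named miRNAs are the members, their hairpin arms, seed relatives, the 2 largest opposite-strand pairs (at least 16 complementary bases and 100 reads), the 3 closest patterns and list members with at least 100 reads. Other names were chosen after their values were seen. Members and lists were chosen with earlier results of these data known. Alternatives covered scaling, filter, pseudocount, limma-voom, the replicate block, thinning, summing the pair and leaving out libraries.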

Additional observations from a re-analysis of the deposited data

How the results depend on the processing

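The count of 0 miRNAs past the threshold became 1 (miR-1260b) by limma-voom, with 13 at an unadjusted p under 0.05, and 0 to 20 when 1 library was left out, with 20 without siCTL 3. Leaving out 1 library gave log2 fold changes of 3.34 to 6.49 for miR-7-5p and 4.57 to 10.93 for miR-3529-3p, past the threshold only without siCTL 3. Over the other alternatives adjusted p-values lay above it. The smallest for miR-7-5p was 0.233, by limma-voom. Scaling to library totals gave 5.38 and 7.41, while it moved the median of all tested miRNAs from 1.72 to 2.57, and a pseudocount of 10 gave 4.13 and 4.48. With the pair summed into 1 entry the value was 4.75 (adjusted p = 0.51). Leaving out siCTL 1 and siCTL 2 turned miR-3529-3p to −1.78, the pair's share difference to −0.0539, the division to −31.2 percentage points and the mean within-library log2 ratio to 0.429. The latter ran from −0.697 to 0.0877 when 1 library was left out, the share difference from 0.364 to 0.782 and the division from 8.97 to 49.2. Each of these used fewer libraries, and the cause was not tested.

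Libraries of the same number correlated in their deviations at −0.24, 0.18 and 0.14 across miRNAs, so the numbers were not taken as pairs. With the replicate block, the fold changes were 4.44 (adjusted p = 0.479) and 6.69 (0.466), the pair's share difference was 0.503 (exact p = 0.5), and the count of calls stayed at 0. Depth limits siCTL 1 most, where shares up to 0.00747% can go unseen.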

Other observations

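Of 117 pairs of entries whose sequences are reverse complements over at least 16 bases, 11 had at least 100 reads, and 8 of these overlap on opposite strands of the genome. Beside those described above, miR-423-3p and miR-3184-5p, the other arms of the same 2 hairpins as miR-423-5p and miR-3184-3p, shared 6776 reads. There miR-3184-5p made up 32.8% in siCTL 3, 45.1% in siPRDX3 1 and 34.8% in siPRDX3 3, so the near-even division of one arm was not seen in the other. The reads of miR-203a-3p, an epidermal miRNA, and miR-203b-5p came almost all from siCTL 2, with 137 and 146.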
